A study of Mus musculus with 37 samples.

Results

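The combined response of mature luminal mammary cells carrying Y541S estrogen receptor alpha to estradiol and progesterone was measured by RNA sequencing in 6 libraries of a series of 37. They were the 3 libraries titled Y541S E2/P (E2+P4 below) and the 3 titled Y541S placebo, chosen by their titles. The Y541S change lies in the mouse Esr1 gene, and the libraries of both groups carry it. Mice were raised to 8 weeks of age, ovariectomized, so that the ovaries no longer supplied hormone, and given pellets for 8 days that released estradiol (E2) with progesterone (P4) or held placebo. Mature luminal cells were then isolated by flow cytometry. Set beside them were the Y541S groups given E2 alone or P4 alone and the E2+P4 and placebo groups of D542G mice and of WT mice, with 3 libraries in each and the same surgery and pellet time. The sources used here give neither the zygosity of the alleles, nor the tissues that carry them, nor the number of mice per library. The p-values therefore measure the spread between these samples, which may be technical in part.

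Estrogen receptor alpha is a transcription factor that estradiol switches on. Mouse Y541S corresponds to a substitution in the ligand-binding domain that recurs in human breast cancers treated with endocrine therapy, where it gives the receptor activity without hormone. In the mammary gland the receptor is carried by a subset of luminal cells, the hormone-sensing cells. Estradiol induces the progesterone receptor in them, and progesterone then makes them secrete signals such as RANKL, Wnt4 and amphiregulin, which act on neighbouring cells that lack the receptors. In pregnancy these signals drive side branching and the growth of milk-producing alveoli.

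The deposited values were read counts per gene, 25.69 to 44.4 M per library, and 18426 genes were expressed well enough to be tested. Levels below are CPM, counts scaled to a common library size, given for E2+P4 libraries 1, 2 and 3 and for placebo libraries 2, 3 and 5 in that order. Differences are log2 fold changes ± SE of E2+P4 over placebo from edgeR's quasi-likelihood test fitted to all 37 libraries. Genes with a p under 0.05 after Benjamini-Hochberg adjustment across the tested genes are called higher or lower. Placebo library 5, which has the fewest counts of the 6 and an identifier of a later number series, stood apart from the other placebo libraries. On the first principal component of all 37 libraries (19.79% of the variance) it lay at 54.8, between the E2+P4 libraries at 74.1 to 79.1 and placebo 2 and 3 at -14.4 and -21.3. Epithelial keratins and claudins were high in all 6 libraries, their list summing to 22960 to 26570 CPM under E2+P4 and 29320 to 31510 CPM under placebo. Markers of other cells were summed in the same way. The 14 fibroblast markers summed to 286.6, 600.3 and 696.9 CPM under E2+P4 and to 4436, 4590 and 814.4 CPM under placebo. Dcn, which encodes decorin, had 183, 440.2 and 531 CPM under E2+P4, against 3985, 4054 and 205 CPM under placebo, the highest level of these markers in each library but placebo 5, where Col6a3 had 297.6 CPM. Apart from Dcn and Col6a3, each fibroblast marker was higher in placebo 5 than in placebo 2 and 3, unlike the sums. Col1a1, for example, had 3.06, 6.6 and 54.25 CPM and Col3a1 40.4, 26.6 and 118.5 CPM under placebo. The 15 basal markers summed to 189.4 to 344.5 CPM and to 276.3 to 860.3 CPM, the 13 endothelial markers to 72.94 to 123.2 CPM and to 92.4 to 322.3 CPM, and the 18 leukocyte markers to 18.91 to 37.23 CPM and to 24.64 to 76.8 CPM, each under E2+P4 and then under placebo. The 23 luminal progenitor and alveolar markers summed to 4974 to 6345 CPM under E2+P4 and to 6964, 4256 and 12330 CPM under placebo. The part of these cells and of placebo 5 in the results was not tested, and values without placebo 5 are given beside some of them. Where none is given, the value rests on all 3 placebo libraries and may change without placebo 5. In bulk RNA, fewer cells of a type and less RNA per cell cannot be told apart.

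E2+P4 raised 1554 genes (8.43% of those tested) and lowered 1863 (10.1%) relative to placebo. Among the called genes, 468 rose by 2-fold or more (2.54% of those tested) and 1279 fell by 2-fold or more (6.94%), so large falls outnumbered large rises. The libraries of the groups did not overlap for 6376 genes (34.6%), and 3043 of these were called (16.5% of those tested). The median log2 fold change over all tested genes was -0.04. Without placebo 5 the test called 1644 genes higher and 2013 lower, and 2667 genes were called in the same direction with and without it. A total of 1541 genes were called in each of the 6 fits that left out a library of these groups.

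**Figure D1:**
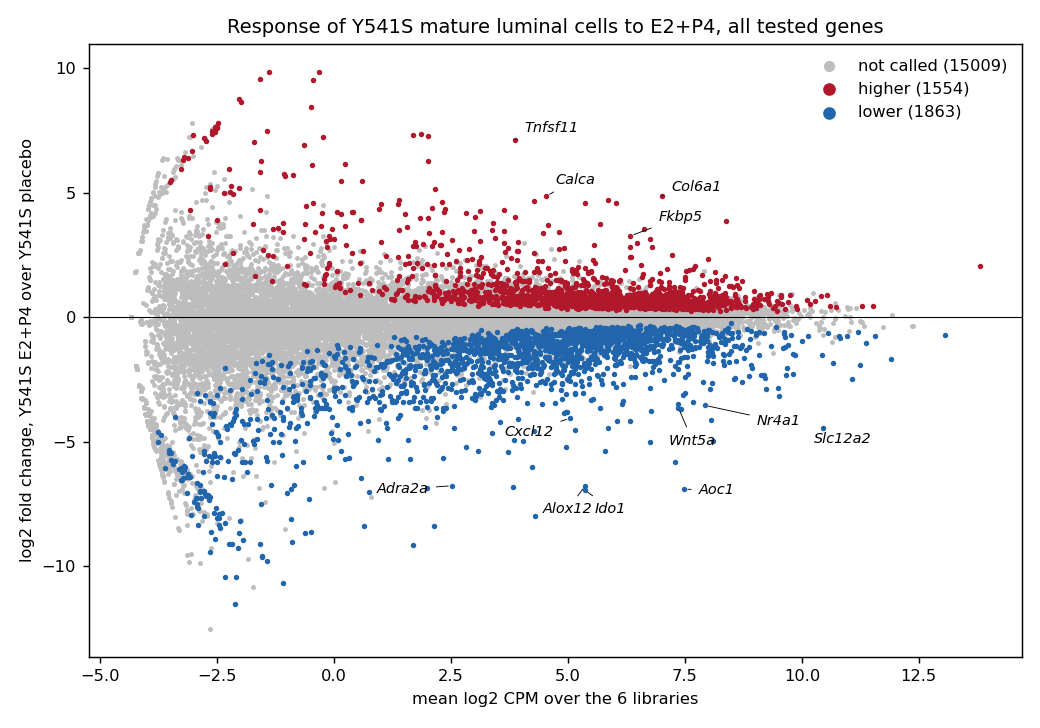
Log2 fold change of Y541S E2+P4 over Y541S placebo against mean log2 CPM over the 6 libraries, with a point for each of the 18426 tested genes. Red points are the 1554 genes called higher, blue points the 1863 called lower and grey points the 15009 not called; among well expressed genes the longest excursions are downward, as for Aoc1 and Slc12a2.

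The targeted receptor gene itself was measured first. Esr1 (ENSMUSG00000019768, chromosome 10, 4611593 to 5005614, GRCm38) had 56.3, 66.8 and 65.1 CPM under E2+P4, against 105, 86.6 and 55.1 CPM under placebo, and the groups overlapped through placebo 5 (-0.39 ± 0.33 log2, adjusted p = 0.458). The allele that each read came from is not recorded in such counts. Pgr, the progesterone receptor gene and a textbook target of estrogen receptor alpha, had 119, 117 and 149 CPM under E2+P4, against 332, 288 and 116 CPM under placebo, so that placebo 5 again lay with the E2+P4 libraries (-0.94 ± 0.37 log2, adjusted p = 0.0736). Without placebo 5, Pgr was called lower, at -1.27 log2 (adjusted p = 0.0131). Greb1 (ENSMUSG00000036523, chromosome 12, 16670615 to 16800886), a classical estrogen receptor target in breast cells, had 29.8, 27.4 and 36.1 CPM under E2+P4, against 25, 17.5 and 44.9 CPM under placebo. The ranges of its groups overlapped fully, and it did not pass the test (0.10 ± 0.48 log2, adjusted p = 0.925).

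Of 28 tested estrogen receptor targets, 2 rose, 7 fell and 19 did not pass the test, with a median of -0.54 log2 against -0.04 over all tested genes. The share that rose, 7.143%, was near the 8.43% of all tested genes, and the share that fell was 25%, against 10.1%. Both that rose encode growth-related transcription factors. Myc had 497, 659 and 580.1 CPM under E2+P4, against 144, 93.4 and 371 CPM under placebo (1.51 ± 0.30 log2, adjusted p = 0.000816), with placebo 5 close to the treated libraries, and the value was 2.29 log2 (adjusted p = 4.58e-07) without it. Myb had 30.8, 33.4 and 38.2 CPM under E2+P4, against 4.65, 9.9 and 6.15 CPM under placebo (2.31 ± 0.51 log2, adjusted p = 0.00211). Among those that fell, Cxcl12 (ENSMUSG00000061353, chromosome 6, 117168535 to 117181367) encodes a chemokine that attracts leukocytes. It had 9.68, 8.51 and 6.68 CPM under E2+P4, against 193, 136 and 87.4 CPM under placebo, a gap of several-fold between the nearest libraries (-4.06 ± 0.54 log2, adjusted p = 8.73e-06). Ccn5, which encodes a secreted matrix-associated protein of the CCN family, had 149, 151 and 216 CPM under E2+P4, against 1718, 728 and 447 CPM under placebo (-2.49 ± 0.55 log2, adjusted p = 0.00202). Ccnd1, the cyclin D1 gene, had 192, 124 and 148 CPM under E2+P4, against 395, 264 and 171 CPM under placebo, with placebo 5 inside the treated range. Its call (-0.84 ± 0.30 log2, adjusted p = 0.0471) was lost when placebo 2, placebo 3, E2+P4 2 or E2+P4 3 was left out, and its value was -0.49 log2 without placebo 2.

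Targets of the progesterone receptor and of related steroid receptors included the largest rises. Of 30 tested, 12 rose and 5 fell (40% and 16.67%, against 8.43% and 10.1% of all tested genes), with a median of 0.27 log2. Tnfsf11 (ENSMUSG00000022015, chromosome 14, 78277445 to 78308043) encodes RANKL, the ligand through which progesterone acts on neighbouring luminal cells. It had 203, 201 and 215 CPM under E2+P4, against 0.245, 1.02 and 3.34 CPM under placebo, so every treated library was far above every placebo library (7.14 ± 1.27 log2, adjusted p = 0.000234). Calca (ENSMUSG00000030669, chromosome 7, 114631478 to 114636357), which encodes calcitonin and the peptide CGRP and is a progesterone-induced gene of the mouse gland, had 97, 179.8 and 272 CPM under E2+P4, against 12.1, 6.04 and 0.395 CPM under placebo (4.87 ± 0.93 log2, adjusted p = 0.000525). Its lowest treated library stood well above its highest placebo library. Fkbp5, a co-chaperone gene induced by several steroid receptors, had 262, 347 and 285 CPM under E2+P4, against 13.6, 11.2 and 68.4 CPM under placebo (3.27 ± 0.51 log2, adjusted p = 5.42e-05). Placebo 5 had the highest placebo level of Fkbp5 and of Tnfsf11, and the values without it were 4.59 log2 (adjusted p = 1.61e-07) and 8.36 log2 (adjusted p = 0.000392). Among the members that fell, Per1, a clock gene that glucocorticoids and progestins can induce, had 12.4, 9.38 and 13.3 CPM under E2+P4, against 29.1, 26.4 and 42.1 CPM under placebo (-1.48 ± 0.21 log2, adjusted p = 1.96e-05). Cebpb, a transcription factor gene of the luminal lineage, had 16.6, 60.9 and 5.2 CPM under E2+P4, against 209.6, 217 and 1066 CPM under placebo (-4.17 ± 0.66 log2, adjusted p = 6.72e-05), and 60.4% of its span is shared with other genes, where the assignment of reads is uncertain.

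**Figure D2:**
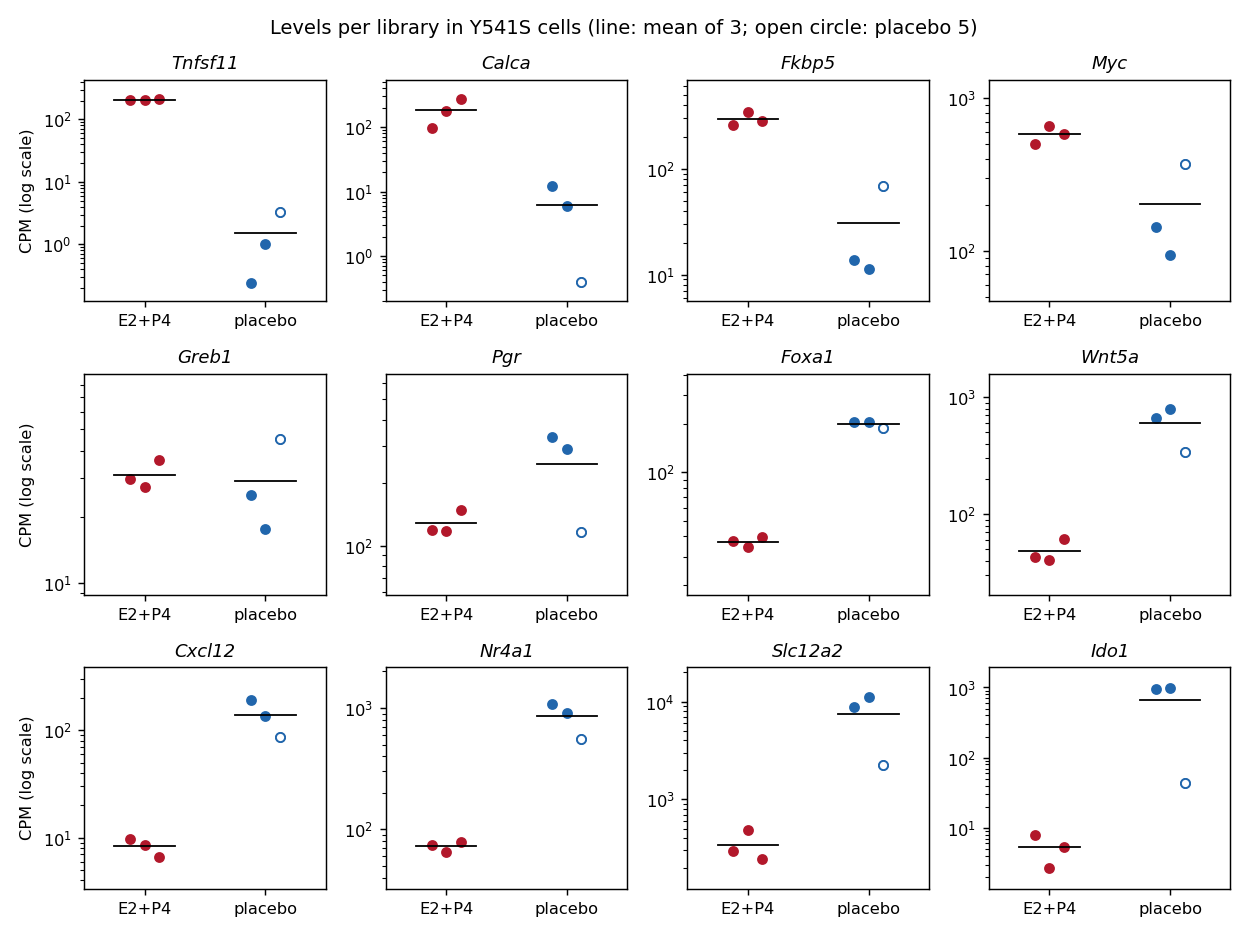
CPM on a log scale for 12 genes in the 3 Y541S E2+P4 libraries (red) and the 3 Y541S placebo libraries (blue, placebo 5 as an open circle), with lines at the means. The treated libraries of Tnfsf11, at 203, 201 and 215 CPM, sit close together. Placebo 5 lies nearer to the treated libraries than placebo 2 and 3 do for Tnfsf11, Fkbp5, Myc, Pgr, Wnt5a, Cxcl12, Nr4a1, Slc12a2 and Ido1. For Calca it lies farther from them.

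Genes listed as signals that hormone-sensing cells send to their neighbours moved in both directions. Of 26 paracrine ligand genes, 5 rose (19.23%) and 8 fell (30.77%), against 8.43% and 10.1% of all tested genes. Their median was -0.85 log2, and 7 rose and 7 fell without placebo 5. Areg, which encodes amphiregulin, the EGF-family ligand needed for ductal growth, had 402, 406 and 503 CPM under E2+P4, against 133, 138 and 210.2 CPM under placebo, with no overlap between groups. Its call (1.45 ± 0.47 log2, adjusted p = 0.0308) was lost in each fit that left out a library other than placebo 5, with adjusted p-values just over the threshold or higher. Wnt5a (ENSMUSG00000021994, chromosome 14, 28504750 to 28527448), a non-canonical Wnt ligand that restrains ductal branching, had 42.7, 40.7 and 61.6 CPM under E2+P4, against 668, 798 and 341 CPM under placebo (-3.64 ± 0.48 log2, adjusted p = 8.16e-06). Inhbb, the inhibin beta B subunit gene, had 35.6, 24.3 and 24.6 CPM under E2+P4, against 115, 110.1 and 126 CPM under placebo (-2.06 ± 0.29 log2, adjusted p = 2.04e-05). Wnt4, the progesterone-responsive Wnt ligand, had 28.7, 34.2 and 21.1 CPM under E2+P4, against 65.7, 119.8 and 45.7 CPM under placebo; it did not pass the test (-1.46 ± 0.56 log2, adjusted p = 0.0655) but was called without placebo 5 at -1.73 log2 (adjusted p = 0.0413). Rspo1, which encodes R-spondin 1, an amplifier of Wnt signals, is on the list of luminal progenitor and alveolar markers. It had 138, 92.8 and 89.3 CPM under E2+P4, against 4.09, 1.07 and 42.6 CPM under placebo. It was not called with all libraries (2.75 ± 1.06 log2, adjusted p = 0.0696), while without placebo 5 it was called at 5.37 log2 (adjusted p = 0.00312).

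Of 41 Wnt pathway genes 0 rose and 8 fell (19.51%, against 10.1% of all tested genes), among them Wnt7b (-1.03 ± 0.22 log2), the Wnt receptor gene Fzd4 (-2.54 ± 0.55 log2) and Fzd8 (-1.78 ± 0.41 log2). Without placebo 5, 2 Wnt pathway genes rose and 8 fell. Of 25 Notch pathway genes 0 rose and 6 fell (24%). Hey1, a transcriptional repressor that Notch induces, had 4.34, 2.89 and 1.77 CPM under E2+P4, against 39.7, 29.7 and 40.1 CPM under placebo (-3.61 ± 0.65 log2, adjusted p = 0.000279), and Notch3 and Hes1 fell by less (-0.96 ± 0.23 and -0.81 ± 0.19 log2). Hey2, another repressor of this family, was at 0 or 0.0221 CPM under E2+P4 and under 1 CPM in each placebo library, and its call was lost without E2+P4 1 or E2+P4 2. Of 41 genes of the BMP, activin and TGF beta pathways 3 rose (7.317%, near the 8.43% of all tested genes) and 8 fell (19.51%). Bmp3, a BMP ligand gene, had 233, 181 and 226 CPM under E2+P4, against 28.2, 25.5 and 37 CPM under placebo (2.82 ± 0.59 log2, adjusted p = 0.00121). Ltbp1, which encodes a protein that stores latent TGF beta in the matrix, had 241, 242 and 269.6 CPM under E2+P4, against 1049, 538 and 776 CPM under placebo (-1.65 ± 0.34 log2, adjusted p = 0.00107). Smad7, an inhibitor of TGF beta signalling, had 6.64, 6.41 and 6.44 CPM under E2+P4, against 10.4, 20.4 and 50.8 CPM under placebo, and its value was -2.06 ± 0.33 log2 with placebo 5 and -1.24 log2 (adjusted p = 0.00085) without it. Among 28 genes of the IGF axis and of prolactin-Stat5 signalling, 1 rose and 7 fell (25%). The growth hormone receptor gene Ghr had 33.1, 29.2 and 27.3 CPM under E2+P4, against 219, 117 and 95 CPM under placebo (-2.27 ± 0.26 log2, adjusted p = 1.26e-06), and Socs3, the cytokine feedback inhibitor, had 88.9, 64.2 and 87.3 CPM under E2+P4, against 353, 337 and 316 CPM under placebo (-2.07 ± 0.31 log2, adjusted p = 3.49e-05). Akt1 (-2.10 ± 0.45 log2) and Igf2r (-1.31 ± 0.27 log2) were also called lower, with Akt1 at -1.56 log2 (adjusted p = 0.0132) without placebo 5. In the EGF family list of 27 genes, 3 rose and 2 fell, shares of 11.11% and 7.407% that lie near those of all tested genes. The EGF receptor antagonist Lrig1 (-1.44 ± 0.25 log2) and the Ras-pathway inhibitor Spred1 (-2.87 ± 0.40 log2) fell. The feedback inhibitor gene Errfi1 rose (0.80 ± 0.27 log2), and its call was kept among the leave-one-out fits only without placebo 5.

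Genes that mark the hormone-sensing state were more often lower. Of 24 tested, 2 rose and 11 fell (45.83%, against 10.1% of all tested genes), the median was -0.93 log2, and 2 rose and 14 fell without placebo 5. Foxa1 (ENSMUSG00000035451, chromosome 12, 57540628 to 57546916) encodes a pioneer factor that opens chromatin for estrogen receptor alpha. It had 37.4, 34.6 and 39.4 CPM under E2+P4, against 204, 205 and 187 CPM under placebo (-2.42 ± 0.45 log2, adjusted p = 0.00034), and here placebo 5 was level with the other placebo libraries. Ly6a, a surface marker gene of luminal subsets, had 212, 273 and 299 CPM under E2+P4, against 2508, 2912 and 389 CPM under placebo (-2.89 ± 0.45 log2, adjusted p = 6.17e-05). Prlr, the prolactin receptor gene, had 272, 300.3 and 291 CPM under E2+P4, against 889, 914 and 239.5 CPM under placebo, with placebo 5 below the treated libraries. Its call (-1.24 ± 0.33 log2, adjusted p = 0.00956) was lost without placebo 2 or placebo 3. Cited1, a coactivator gene of hormone-sensing cells, had 37.2, 54.6 and 41.7 CPM under E2+P4, against 45.9, 61.1 and 30.6 CPM under placebo and did not pass the test (-0.04 ± 0.47 log2, adjusted p = 0.967). Myb and Areg, described above, were the members that rose.

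Nuclear receptors and their coregulators followed with falls. Of 38 nuclear receptor genes, 1 rose (2.632%) and 11 fell (28.95%), against 8.43% and 10.1% of all tested genes. Of 32 coactivator and corepressor genes, 0 rose and 9 fell (28.12%), and 2 rose and 8 fell without placebo 5. The mineralocorticoid receptor gene Nr3c2 had 4.75, 2.32 and 2.72 CPM under E2+P4, against 21.8, 30.6 and 7.73 CPM under placebo (-2.62 ± 0.43 log2, adjusted p = 9.18e-05). The coactivator gene Ncoa1 had 11.1, 17.6 and 7.65 CPM under E2+P4, against 34, 34.7 and 67.7 CPM under placebo (-1.91 ± 0.33 log2, adjusted p = 0.000185), and Tle1, a corepressor gene of the Groucho family, changed by -1.74 ± 0.25 log2.

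The calls for progenitor, milk and defence genes depended on placebo 5. Of 23 luminal progenitor and alveolar markers, 1 rose (4.348%) and 7 fell (30.43%), against 8.43% and 10.1% of all tested genes. Their median was -0.50 log2, but without placebo 5 the counts were 7 higher and 3 lower and the median was 0.45. Elf5, the alveolar transcription factor gene, had 21.7, 13.5 and 13.8 CPM under E2+P4, against 16.6, 32.3 and 68.5 CPM under placebo. Its call (-1.26 ± 0.44 log2, adjusted p = 0.0468) was lost without placebo 5, at -0.58 log2 (adjusted p = 0.394), and in every other leave-one-out fit but the fit without placebo 2. Kit, the progenitor receptor gene, had 264, 183 and 204 CPM under E2+P4, against 159, 77.3 and 665 CPM under placebo, with placebo 5 above all other libraries (-0.47 ± 0.47 log2, adjusted p = 0.532). Csn2, the beta-casein gene, had 227, 53.7 and 50.6 CPM under E2+P4, against 0.514, 0.178 and 131 CPM under placebo: placebo 2 and 3 were under 1 CPM, and placebo 5 lay within the treated range (1.34 ± 1.59 log2, adjusted p = 0.611; 8.30 log2 (adjusted p = 0.0112) without placebo 5). Of 27 milk protein and lipid secretion genes 0 rose and 4 fell (14.81%), against 4 and 1 without placebo 5. Btn1a1, which encodes butyrophilin of the milk fat globule, had 13.9, 2.54 and 3.54 CPM under E2+P4, against 37.2, 27.6 and 78.4 CPM under placebo (-2.84 ± 0.73 log2, adjusted p = 0.00675). The call of the milk fat globule gene Mfge8 (-0.83 ± 0.29 log2) was lost in each leave-one-out fit but the fit without placebo 3, and that of Slc5a8 (-1.05 ± 0.36 log2) in all 6. Of 28 mucins and secreted defence proteins, 0 rose and 8 fell (28.57%), against 4 and 6 without placebo 5. Ltf, the lactoferrin gene, had 67.4, 56.1 and 69.1 CPM under E2+P4, against 1539.7, 801 and 1062 CPM under placebo (-4.14 ± 0.95 log2, adjusted p = 0.00272), with no overlap between groups. Clu, which encodes the extracellular chaperone clusterin, had 1363, 1161 and 1369 CPM under E2+P4, against 7531, 4691 and 2616 CPM under placebo (-1.93 ± 0.25 log2, adjusted p = 5.95e-06), and Wfdc2, a secreted protease inhibitor gene, had 771, 997 and 1169.6 CPM under E2+P4, against 5181, 4379.5 and 889 CPM under placebo (-1.83 ± 0.37 log2, adjusted p = 0.000966). Pglyrp1, a peptidoglycan-binding defence gene, was the progenitor list's member that rose (1.92 ± 0.50 log2, adjusted p = 0.0069).

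Epithelial structure changed in part. Of 16 keratins, 0 rose and 4 fell (25%), against 8.43% higher and 10.1% lower of all tested genes. Krt19 had 6022, 7186 and 6938 CPM under E2+P4, against 11569, 12114 and 9568 CPM under placebo (-0.72 ± 0.19 log2, adjusted p = 0.00685), Krt7 changed by -0.78 ± 0.20 log2, and Krt4, a keratin of stratified epithelium, had 53.4, 40.7 and 48 CPM under E2+P4, against 721, 535 and 605 CPM under placebo (-3.71 ± 0.61 log2, adjusted p = 0.000114). Krt79, a keratin of skin appendages, had 11.5, 8.6 and 8.43 CPM under E2+P4, against 76, 57.7 and 527 CPM under placebo, highest in placebo 5 (-4.53 ± 0.91 log2, adjusted p = 0.000813), and was called at -2.81 log2 (adjusted p = 0.012) without that library. The luminal keratins Krt8 and Krt18 did not pass the test (-0.24 ± 0.21 and -0.35 ± 0.18 log2). Cldn3 and Cldn7, tight junction claudins, rose (0.84 ± 0.15 log2, adjusted p = 0.000236, and 0.88 ± 0.14 log2, adjusted p = 5.18e-05). Of 44 adhesion, junction and matrix genes, 7 rose (15.91%) and 8 fell (18.18%). The falls included the desmosomal cadherin Dsc2 (-1.95 ± 0.27 log2) and Itga2, the integrin alpha 2 subunit (-2.24 ± 0.41 log2).

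Many genes for making protein and energy rose by small amounts. Of 39 nuclear-encoded subunits of the respiratory chain and ATP synthase, 29 rose and 0 fell (74.36%, against 8.43% of all tested genes), with a median of 0.52 log2; without placebo 5, 18 rose. Cox6a1 had 445, 453 and 419.6 CPM under E2+P4, against 289, 280.3 and 192 CPM under placebo (0.79 ± 0.12 log2, adjusted p = 6.58e-05), and Cox5a (0.80 ± 0.13 log2), Cox6c (0.89 ± 0.15 log2) and Atp5f1 (0.69 ± 0.11 log2) changed by similar amounts. None of the 12 tested genes of the mitochondrial genome was called by edgeR or by DESeq2, 0 of them reached an unadjusted p under 0.05, and their median was 0.03 log2. Of 39 ribosomal protein genes, 25 rose (64.1%) and 0 fell, with a median of 0.73 log2. Rplp1 had 103, 81.1 and 101 CPM under E2+P4, against 46.1, 47.5 and 29.9 CPM under placebo (1.21 ± 0.21 log2, adjusted p = 0.000146), and Rplp0 had 75.8, 67.1 and 80.2 CPM under E2+P4, against 41.1, 41.4 and 39.7 CPM under placebo (0.87 ± 0.14 log2, adjusted p = 8.84e-05). Of 31 ribosome biogenesis genes, 13 rose and 0 fell; Nop10, a component of the small RNA particles that modify ribosomal RNA, had 214, 237 and 216 CPM under E2+P4, against 106, 103 and 68.5 CPM under placebo (1.26 ± 0.16 log2, adjusted p = 3.41e-06), and the nucleolar chaperone gene Npm1 had 32.3, 29.6 and 30.7 CPM under E2+P4, against 11.7, 13.1 and 18.3 CPM under placebo (1.11 ± 0.22 log2, adjusted p = 0.000838). Shorter genes had higher fold changes. With all tested genes cut by exonic length into 5 bins of equal size, the median log2 fold change was 0.11, -0.02, -0.04, -0.07 and -0.14 from shortest to longest. The shortest bin held 14 of the 39 ribosomal protein genes and 14 of the 39 respiratory chain genes, and the part of length in these rises was not tested. Without placebo 5 the medians were 0.13, -0.0012, -0.0069, -0.022 and 0 from shortest to longest, so the shortest bin kept its positive median. In that fit 21 ribosomal protein genes rose. Fitted to the 6 libraries alone, which leaves few degrees of freedom, the test called 9 respiratory chain and 14 ribosomal protein genes higher.

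The protein-folding and export machinery of the endoplasmic reticulum also rose in part. Of 32 genes of the unfolded protein response and of folding, 9 rose (28.12%) and 2 fell (6.25%). Of 49 genes of translocation, glycosylation and vesicle transport, 14 rose (28.57%) and 2 fell (4.082%). The shares of all tested genes were 8.43% and 10.1%. Ssr2, a subunit of the translocon-associated complex, had 646, 678 and 744 CPM under E2+P4, against 265, 242 and 258 CPM under placebo (1.44 ± 0.13 log2, adjusted p = 5.23e-08). Sec61b, a subunit of the translocation channel, changed by 0.97 ± 0.15 log2 and Ddost, of the oligosaccharyl transferase, by 0.88 ± 0.13 log2. The mannosidase gene Man1a went the other way, with 58.5, 79.1 and 74.8 CPM under E2+P4, against 1122, 947 and 203 CPM under placebo (-3.42 ± 0.63 log2, adjusted p = 0.00035). Among folding genes, Pdia4, a disulfide isomerase, had 877, 828 and 1023 CPM under E2+P4, against 538, 459 and 412 CPM under placebo (0.95 ± 0.17 log2, adjusted p = 0.000318), and Creld2 had 134, 121 and 145 CPM under E2+P4, against 76.9, 58.7 and 77.9 CPM under placebo (0.91 ± 0.15 log2, adjusted p = 0.000115). Manf, a secreted stress-response factor gene, changed by 0.86 ± 0.16 log2, with 92.3% of its span shared with other genes. Without placebo 3 or without E2+P4 3, 4 genes of the folding list were called higher.

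The promoters of some of these genes hold the ER stress element, CCAAT and CCACG with 9 bases of any kind between them, through which the factors ATF6 and XBP1 act. It was searched on both strands from 250 bases before to 50 bases after each gene start in the RefSeq windows of GRCm38.p6. It was in 0.119% of all 32851 windows and in 0.15% of tested genes with a window. Of the folding list it was in 9 of 28 genes with a window, called or not. Of the 7 called higher it was in 4: Calr, Creld2, Hsp90b1 and Pdia6. A match is a description of the sequence only. The stretches of Creld2 and Pdia6, chosen after their values were seen because their calls were kept in every leave-one-out fit, are shown upstream of the gene start with the element in capitals, at chr15:88819485-88819573 (plus strand) and chr12:17266456-17266544 (plus strand). The element is read on the opposite strand in Creld2.
Creld2: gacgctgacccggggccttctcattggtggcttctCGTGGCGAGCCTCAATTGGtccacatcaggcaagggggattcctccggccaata
Pdia6: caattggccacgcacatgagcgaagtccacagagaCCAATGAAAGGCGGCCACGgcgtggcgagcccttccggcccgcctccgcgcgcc
Pdia6, a disulfide isomerase gene, had 1312, 1317 and 1619.8 CPM under E2+P4, against 936, 770.5 and 891 CPM under placebo (0.71 ± 0.17 log2, adjusted p = 0.00329). Calr, which encodes the chaperone calreticulin, had 1007, 1113 and 1198 CPM under E2+P4, against 855, 733 and 813 CPM under placebo (0.47 ± 0.13 log2, adjusted p = 0.0102), and its call was lost without placebo 3 or E2+P4 3.

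Proliferation genes leaned upward with few calls. Of 36 DNA replication and S phase genes, 6 rose (16.67%, against 8.43% of all tested genes) and 0 fell, with a median of 1.05 log2. Mcm4, a subunit of the replicative helicase, had 172, 182 and 192 CPM under E2+P4, against 88.2, 85.3 and 76.2 CPM under placebo (1.13 ± 0.31 log2, adjusted p = 0.0117), and Chaf1b, a subunit of a histone chaperone, had 89.5, 83.8 and 86.9 CPM under E2+P4, against 39.6, 32.3 and 31 CPM under placebo (1.34 ± 0.36 log2, adjusted p = 0.0103). The calls of Lig1 (1.16 ± 0.37 log2) and Rfc3 (0.82 ± 0.26 log2) were lost in 5 and 6 of the leave-one-out fits. Of 39 G2 and M phase genes, 0 were called by edgeR or by DESeq2 and 0 had an unadjusted p under 0.05, although 38 had a positive fold change and the median was 1.06 log2. Mki67, the proliferation marker, had 50.4, 43.3 and 57.3 CPM under E2+P4, against 15, 23.8 and 47.1 CPM under placebo, placebo 5 lying within the treated range (0.81 ± 1.08 log2, adjusted p = 0.656). These calls depended on which libraries set the spread: fitted to the 6 libraries alone, 26 S phase genes and 21 G2 and M phase genes were called higher. Among 35 G1 regulators and p53 targets, 3 rose (8.571%, near the 8.43% of all tested genes) and 9 fell (25.71%, against 10.1%). Cdk4, the G1 kinase gene, had 736, 716 and 714 CPM under E2+P4, against 384, 375 and 292 CPM under placebo (1.04 ± 0.20 log2, adjusted p = 0.000494), and Cdkn1c, the kinase inhibitor p57 gene, had 12.4, 19.9 and 17.6 CPM under E2+P4, against 1.71, 2.34 and 3.6 CPM under placebo (2.71 ± 0.52 log2, adjusted p = 0.000582). Rb1, the retinoblastoma gene, changed by -1.97 ± 0.32 log2 and the antiproliferative gene Btg1 by -1.06 ± 0.18 log2.

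Many immune and inflammatory genes fell. Of 26 chemokines and cytokines, 1 rose and 15 fell (57.69%, against 10.1% of all tested genes), with a median of -1.99 log2. Il33, an epithelial alarmin, had 25.4, 15.3 and 19.8 CPM under E2+P4, against 401, 1042 and 491 CPM under placebo (-5.00 ± 0.74 log2, adjusted p = 3.37e-05), and Tnf had 3.56, 5.21 and 5.99 CPM under E2+P4, against 23.3, 20.1 and 33.3 CPM under placebo (-2.37 ± 0.44 log2, adjusted p = 0.000375). Cx3cl1 (-0.91 ± 0.16 log2) fell by less. Without placebo 5, 1 rose and 9 fell, and with the first identifier series alone the counts were 1 and 8. Of 17 antigen presentation genes, 0 rose and 8 fell (47.06%). The peptide transporter gene Tap2 had 161, 131 and 137 CPM under E2+P4, against 645, 575 and 223 CPM under placebo (-1.75 ± 0.26 log2, adjusted p = 3.02e-05), and the immunoproteasome gene Psmb9 was called at -1.02 ± 0.26 log2 but not without placebo 2. Leukocyte markers were low in all 6 libraries, at the sums given above, and 0 of 18 were called by edgeR (1 lower by DESeq2), with 4 lower and 0 higher at an unadjusted p under 0.05.

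Of 33 type I interferon response genes, 0 rose and 14 fell (42.42%, against 10.1% of all tested genes), with a median of -0.93 log2, and 10 fell without placebo 5. Ifit3, an antiviral effector gene, had 2.64, 3.17 and 3.36 CPM under E2+P4, against 25.7, 15.8 and 37.5 CPM under placebo (-3.10 ± 0.63 log2, adjusted p = 0.000889). Ifih1, a sensor of double-stranded RNA, had 26, 18.4 and 23.2 CPM under E2+P4, against 45, 47.5 and 70.8 CPM under placebo (-1.27 ± 0.24 log2, adjusted p = 0.000375), and Parp14 changed by -1.42 ± 0.32 log2. The core of the interferon-stimulated response element is TTTC repeated after 2 bases of any kind. On either strand it was in 3.44% of all promoter windows, in 3.78% of tested genes with a window and in 4.39% of called-lower genes. Of the interferon list it was in 14 of 24 genes with a window, called or not, and in 7 of the 10 called lower. Ifit1 and Ifit3 each hold it in more than 1 place, and their promoters are shown for that reason, upstream of the gene start at chr19:34640769-34640848 (plus strand) and chr19:34583372-34583451 (plus strand), with the cores in capitals.
Ifit1: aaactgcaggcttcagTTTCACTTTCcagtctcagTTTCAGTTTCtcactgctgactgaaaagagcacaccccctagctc
Ifit3: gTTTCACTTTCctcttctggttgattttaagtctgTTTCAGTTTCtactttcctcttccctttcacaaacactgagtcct
Ifit1 had 18.8, 21.9 and 18.4 CPM under E2+P4, against 65.4, 50.3 and 91 CPM under placebo, with no overlap between groups (-1.80 ± 0.50 log2, adjusted p = 0.012), and its call was lost without E2+P4 3. Ifit3 has a near-identical neighbour, Ifit3b, whose promoter stretch over the same positions carries the same letters, so the split of reads between them is uncertain.

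Immediate early genes, which are switched on within minutes by growth factors, stress or tissue dissociation, fell in large part. Of 30 tested, 0 rose and 17 fell (56.67%, against 10.1% of all tested genes), with a median of -1.11 log2; 1 rose and 14 fell without placebo 5. Nr4a1, an orphan nuclear receptor, had 74.4, 64.7 and 79.3 CPM under E2+P4, against 1082, 915 and 557 CPM under placebo (-3.55 ± 0.45 log2, adjusted p = 4.53e-06). Fosb, a subunit of the AP-1 factor, had 19.6, 20.2 and 29.2 CPM under E2+P4, against 145, 169 and 465 CPM under placebo (-3.50 ± 0.60 log2, adjusted p = 0.000161), and Atf3, a stress-induced repressor, had 304, 395 and 544 CPM under E2+P4, against 2053, 2537 and 1547 CPM under placebo (-2.30 ± 0.33 log2, adjusted p = 2.39e-05). The time from dissection to lysis is not stated in the labels, and its part in these falls was not tested.

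The circadian clock list also moved, with 2 of 16 genes higher (12.5%) and 9 lower (56.25%), against 8.43% and 10.1% of all tested genes. Without placebo 5, 1 was higher and 9 were lower. Clock proteins bind the E-box, CACGTG, and drive repressors that feed back on them. Dbp, an output factor, had 2.62, 0.804 and 1.7 CPM under E2+P4, against 24.9, 32.7 and 6.29 CPM under placebo (-3.64 ± 0.51 log2, adjusted p = 1.67e-05). Nr1d1, which encodes the repressor REV-ERB alpha, had 15.4, 12 and 18.5 CPM under E2+P4, against 176, 224 and 61.9 CPM under placebo (-3.33 ± 0.44 log2, adjusted p = 7.95e-06), and its relative Nr1d2 changed by -1.38 ± 0.24 log2. Bhlhe41 had 13.8, 18.9 and 13.9 CPM under E2+P4, against 70.4, 57.7 and 53.5 CPM under placebo (-1.96 ± 0.20 log2, adjusted p = 2.54e-07), and Bhlhe40 had 198, 124 and 213 CPM under E2+P4, against 658, 762 and 384 CPM under placebo (-1.76 ± 0.24 log2, adjusted p = 1.31e-05), both E-box repressors. Cry1, a repressor of the core loop, was higher, with 89.6, 85.9 and 109 CPM under E2+P4, against 12.6, 16.9 and 76.8 CPM under placebo (1.42 ± 0.45 log2, adjusted p = 0.0257), but the call was lost without placebo 2, placebo 3 or E2+P4 3, and the value was 2.69 log2 (adjusted p = 2.04e-05) without placebo 5. The hour of sacrifice is not stated in the labels, and its part was not tested. An E-box was in 7.15% of all promoter windows and in 10.7% of those of tested genes; among the called clock genes with a window it was in 1 of 2 higher and in 3 of 8 lower. Per1 and Bhlhe41 are shown as clock genes called in every leave-one-out fit, with the E-box in capitals, at chr11:69098748-69098823 (plus strand) and chr6:145865533-145865608 (minus strand).
Per1: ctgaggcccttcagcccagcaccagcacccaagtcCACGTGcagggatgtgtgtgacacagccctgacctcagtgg
Bhlhe41: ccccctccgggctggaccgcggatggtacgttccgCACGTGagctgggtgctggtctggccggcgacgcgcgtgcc

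Of 42 ion channels and pumps, 1 rose, 11 fell (26.19%, against 10.1% of all tested genes) and 30 did not pass the test; 6 rose and 13 fell without placebo 5. Slc12a2 (ENSMUSG00000024597, chromosome 18, 57878678 to 57946821), the cotransporter of sodium, potassium and chloride that loads secretory cells, had 296, 488 and 243 CPM under E2+P4, against 8834, 11202 and 2252 CPM under placebo (-4.44 ± 0.52 log2, adjusted p = 1.39e-06). Placebo 5 lay between the groups and apart from both. The water channel gene Aqp5 had 439, 396 and 435 CPM under E2+P4, against 2118, 2355 and 809 CPM under placebo (-2.06 ± 0.38 log2, adjusted p = 0.00035), and Fxyd4, a pump regulator gene, had 3.94, 4.3 and 4.27 CPM under E2+P4, against 37.3, 33 and 9.49 CPM under placebo (-2.67 ± 0.41 log2, adjusted p = 4.68e-05). Clic6 changed by -3.44 ± 0.54 log2. Of 26 amino acid and sugar transporters, 1 rose and 4 fell (15.38%). Slc6a6, the taurine transporter gene, had 357, 454 and 463 CPM under E2+P4, against 97.9, 100.5 and 112 CPM under placebo (2.04 ± 0.35 log2, adjusted p = 0.000186). Slc7a11, the cystine importer gene, had 0.917, 1.59 and 0.929 CPM under E2+P4, against 16.5, 14.7 and 24.7 CPM under placebo (-4.02 ± 0.74 log2, adjusted p = 0.000324), and its partner subunit gene Slc3a2 had 227, 207 and 220.3 CPM under E2+P4, against 455, 412 and 446 CPM under placebo (adjusted p = 0.000324).

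Intermediary metabolism was mixed. Of 24 glycolysis and lactate genes, 0 rose and 7 fell (29.17%, against 10.1% of all tested genes). The lactate exporter gene Slc16a3 had 5.91, 4.45 and 4.49 CPM under E2+P4, against 54.2, 26.1 and 12.8 CPM under placebo (-2.65 ± 0.53 log2, adjusted p = 0.000783), Aldoa was called at -1.19 ± 0.26 log2 with 55.9% of its span shared with other genes, and the calls of Eno1 (-0.44 ± 0.13 log2) and Pfkp (-0.65 ± 0.20 log2) were each lost without placebo 2 or E2+P4 2, among others, with Eno1 at -0.27 log2 without placebo 2. Of 24 cholesterol genes 5 rose (20.83%, against 8.43% of all tested genes) and 1 fell, and 3 rose and 2 fell without placebo 5. Acat2 (0.87 ± 0.25 log2, called in all but the fit without placebo 2) rose and Sqle (-0.74 ± 0.24 log2, not called without any of the E2+P4 libraries, nor without placebo 2, at -0.47 log2) fell. Of 34 fatty acid and triglyceride genes, 2 rose and 5 fell (5.882% and 14.71%), shares near those of all tested genes, and 7 rose and 8 fell without placebo 5. Elovl7 (-1.08 ± 0.19 log2), Gpam (-1.34 ± 0.30 log2) and Me1 (-1.12 ± 0.26 log2) fell. Of 32 oxidative stress and metal-binding genes 7 rose and 7 fell (21.88% each). Nfe2l2, the master regulator NRF2, had 124, 119 and 133 CPM under E2+P4, against 266, 272 and 196 CPM under placebo (-0.97 ± 0.18 log2, adjusted p = 0.000314), and the glutathione transferase genes Gstt1 (-3.32 ± 0.41 log2), Gstm2 (-2.93 ± 0.44 log2) and Gstm1 (-1.73 ± 0.28 log2) fell with it. Of 30 genes of steroid, prostaglandin and serotonin metabolism, 6 rose (20%) and 3 fell (10%). Hsd11b2, which inactivates glucocorticoids, had 9.63, 9.82 and 9.09 CPM under E2+P4, against 0.171, 0.508 and 0.539 CPM under placebo (4.56 ± 1.06 log2, adjusted p = 0.00303). Hsd17b10 changed by 1.06 ± 0.15 log2, and Maoa, which breaks down amines, by -1.25 ± 0.21 log2.

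The genes with the largest rises among well expressed ones were Tnfsf11 and Calca, given above, and 13 others. Col6a1, a collagen VI chain gene, had 562, 609 and 986 CPM under E2+P4, against 29.5, 15.2 and 29 CPM under placebo (4.87 ± 0.88 log2, adjusted p = 0.00028), and its neighbour Col6a2 had 254, 243 and 408 CPM under E2+P4, against 12.4, 7.74 and 14.9 CPM under placebo (4.69 ± 1.07 log2, adjusted p = 0.00265). The third chain gene, Col6a3, which was on the fibroblast marker list, had 67.5, 98.9 and 124 CPM under E2+P4, against 364, 457 and 298 CPM under placebo and fell (-1.95 ± 0.50 log2, adjusted p = 0.00641). Myrf, a membrane-bound transcription factor gene known from myelinating cells, had 25.4, 26.2 and 27.9 CPM under E2+P4, against 0.514, 0.533 and 1.19 CPM under placebo (5.17 ± 1.20 log2, adjusted p = 0.00296). Defb1, an antimicrobial defensin gene, had 378, 347 and 289 CPM under E2+P4, against 7.2, 22.1 and 12.3 CPM under placebo (4.60 ± 1.03 log2, adjusted p = 0.00223), and Adra1a, an adrenergic receptor gene, had 40.9, 32.6 and 40.9 CPM under E2+P4, against 1.71, 2.46 and 1.65 CPM under placebo (4.29 ± 0.76 log2, adjusted p = 0.000218). Hpdl (4.31 ± 0.70 log2), Pla1a (4.62 ± 1.08 log2), Cdh2, the N-cadherin gene (4.40 ± 0.88 log2), Spock1 (4.23 ± 0.87 log2), Lor (4.34 ± 1.06 log2) and Ppic (4.58 ± 1.30 log2, not called without placebo 2) completed the unambiguous part of this set. Sprr2g (4.67 ± 0.94 log2) belongs to a multigene cluster, and 75.4% of the span of Ppp1r1b (4.02 ± 0.41 log2) is shared with other genes, so both are uncertain.

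The 15 largest falls among well expressed genes included the following. Aoc1, an amine oxidase gene that degrades histamine and polyamines, had 22.6, 17.9 and 20 CPM under E2+P4, against 3347, 3623 and 334 CPM under placebo (-6.92 ± 1.02 log2, adjusted p = 3.09e-05). Ido1, which degrades tryptophan, had 7.96, 2.69 and 5.33 CPM under E2+P4, against 966, 968 and 43.3 CPM under placebo (-6.96 ± 1.18 log2, adjusted p = 0.00015), and Alox12, a lipoxygenase gene, had 2.62, 7.91 and 4.67 CPM under E2+P4, against 1146, 448 and 93.9 CPM under placebo (-6.79 ± 0.83 log2, adjusted p = 2.65e-06). In these 3 genes placebo 5 was the lowest placebo library and still lay above all treated libraries. Adra2a, an adrenergic receptor gene, had 1.02, 1.13 and 0.398 CPM under E2+P4, against 140.2, 137 and 3.16 CPM under placebo (-6.78 ± 0.93 log2, adjusted p = 1.26e-05), and Fgb, the fibrinogen beta chain gene, had 2.13, 2.98 and 1.19 CPM under E2+P4, against 1246, 352 and 15.6 CPM under placebo (-8.00 ± 1.33 log2, adjusted p = 0.000124). Of 33 adrenergic, purine and peptide receptor genes, 3 rose (9.091%, near the 8.43% of all tested genes), among them Adora1, an adenosine receptor gene (4.56 ± 0.53 log2). The 8 that fell (24.24%, against 10.1%) included Adrb1 (-3.34 ± 0.47 log2). Apod, an apolipoprotein gene, had 3.16, 1.3 and 1.75 CPM under E2+P4, against 99.4, 67.7 and 95.1 CPM under placebo (-5.41 ± 1.07 log2, adjusted p = 0.000739), level across the placebo libraries. Ly6d (-5.81 ± 0.87 log2), Ivl, the involucrin gene (-6.02 ± 1.43 log2), Snap25 (-5.65 ± 1.17 log2), Padi2 (-5.37 ± 0.72 log2), Gfra1 (-5.23 ± 0.83 log2), Chsy3 (-5.23 ± 0.78 log2) and Fam25c (-5.39 ± 0.73 log2) fell with complete separation of the groups. Ctsr, with 0.351, 0.782 and 0.111 CPM under E2+P4, against 41.6, 373 and 8.81 CPM under placebo (-8.39 ± 1.44 log2, adjusted p = 0.000161), belongs to a multigene family of cathepsins and is uncertain. Il33, described above, was also among the 15 largest falls. Of 48 extracellular proteases and inhibitors, 4 rose (8.333%, near the 8.43% of all tested genes) and 9 fell (18.75%, against 10.1%). Serpine2 rose (3.43 ± 0.64 log2) and Tmprss2 fell (-2.62 ± 0.36 log2). Of 17 uroplakin and tetraspanin genes, 2 rose (11.76%) and 4 fell (23.53%). Tspan1 had 20.9, 20 and 27.4 CPM under E2+P4, against 386, 841 and 23 CPM under placebo (-4.19 ± 0.69 log2, adjusted p = 0.000102), Tspan7 rose (1.44 ± 0.36 log2), and Upk3a had 7.04, 5.56 and 3.1 CPM under E2+P4, against 117, 50.8 and 1.58 CPM under placebo, with placebo 5 below the treated libraries (-3.44 ± 1.04 log2, adjusted p = 0.02; not called without placebo 2 or any of the E2+P4 libraries).

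**Figure D3:**
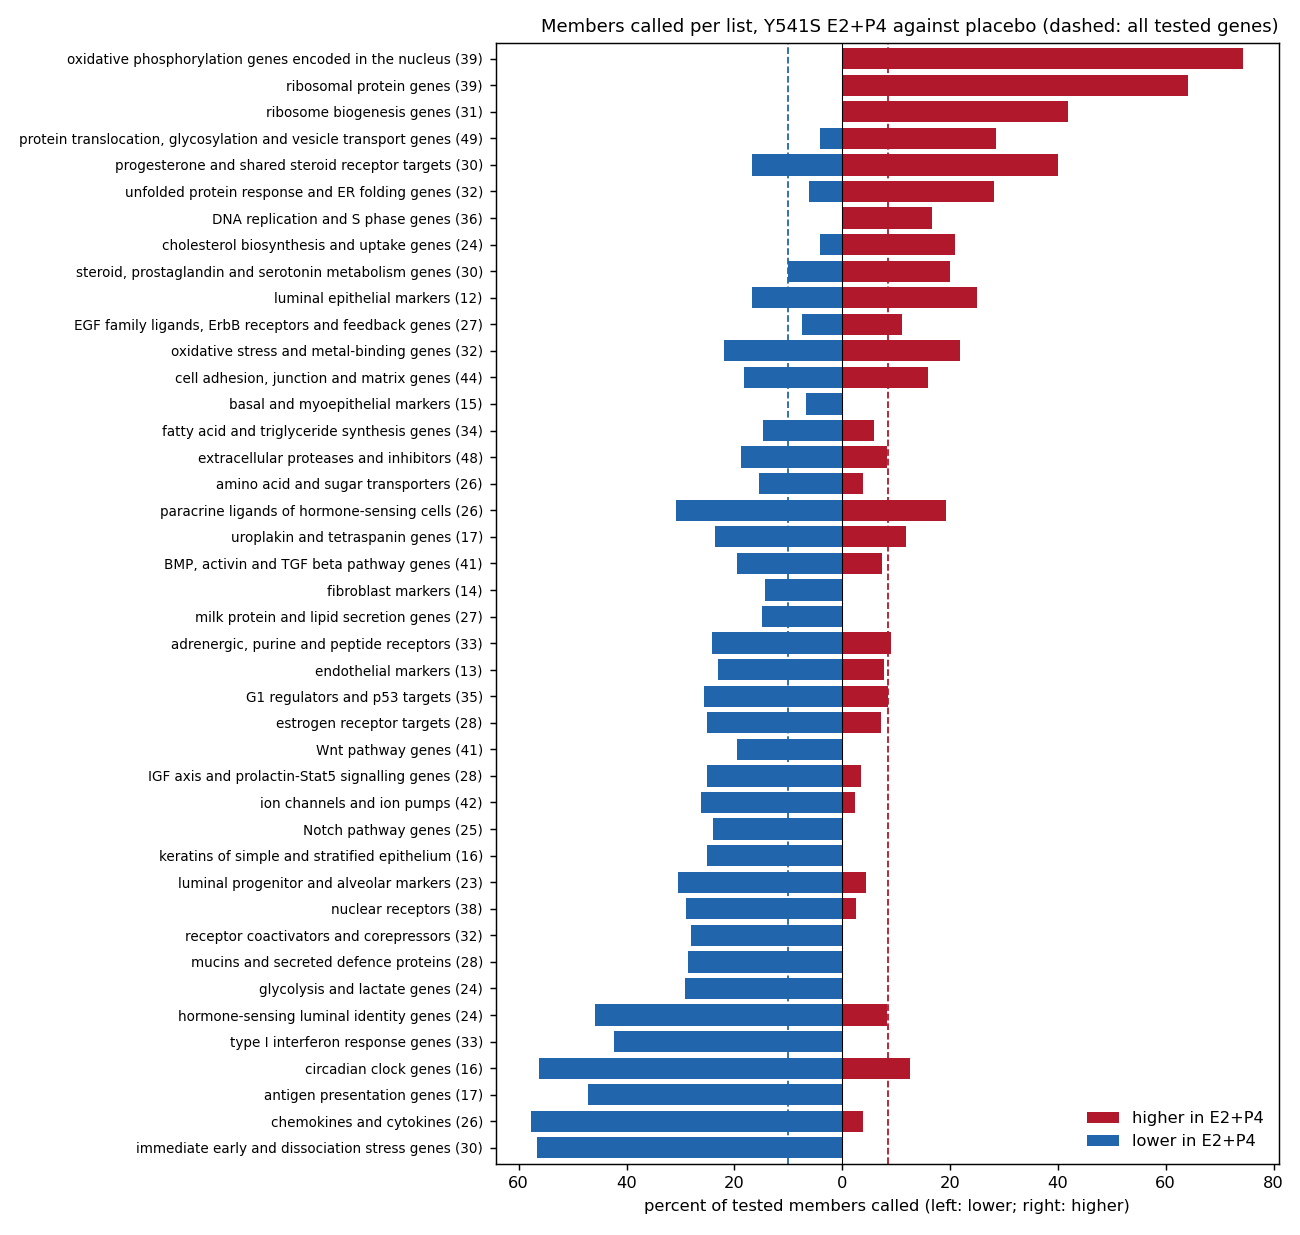
Percent of the tested members of each gene list called higher (red, right) or lower (blue, left) in Y541S E2+P4 against placebo, with the number of tested members in parentheses; lists without a call are left out. The dashed lines are the shares over all tested genes, 8.43% higher and 10.1% lower; respiratory chain and ribosomal protein genes extend furthest to the right (74.36% and 64.1%), chemokines, immediate early and clock genes furthest to the left.

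Each hormone alone was also set against the same placebo libraries, so these comparisons share the controls, placebo 5 included, and their values are given side by side only. Against placebo, E2+P4 changed 3417 genes (18.5% of those tested). E2 changed 857 (4.65%), 344 higher (1.87%) and 513 lower (2.78%), and P4 changed 2077 (11.3%), 948 higher (5.14%) and 1129 lower (6.13%). For Tnfsf11 the log2 fold changes were 7.14 for E2+P4, -0.24 for E2 and 7.46 for P4. For Calca they were 4.87, 0.65 and 6.19 in the same order, and for Fkbp5 3.27, 0.85 and 3.37. Cxcl12 had -4.06, 0.51 and -5.07, and Wnt5a -3.64, -0.44 and -3.69. For these 5 genes the P4 value was past the threshold and the E2 value was not. Fkbp5 had 59.5, 59 and 49 CPM under E2, against 13.6, 11.2 and 68.4 CPM under placebo. Its E2 libraries thus lay above placebo 2 and 3 and below placebo 5. Slc12a2 was past the threshold with either hormone, at -4.44, -2.62 and -2.82. Myc and Nr4a1 were past it for the combination alone, with 1.51, 0.29 and -0.01 for Myc and -3.55, -0.32 and -1.07 for Nr4a1. Myc had 210, 281 and 252 CPM under E2 and 194, 203 and 205 CPM under P4. Its placebo levels were 144, 93.4 and 371 CPM, so all of these single-hormone libraries lay above placebo 2 and 3 and below placebo 5. The comparisons of single hormones were not made without placebo 5. Penk, the preproenkephalin gene, had 702 ± 264 CPM under E2+P4, 1547 ± 859 CPM under E2, 36 ± 22.7 CPM under P4 and 869.5 ± 380.0 CPM under placebo (mean ± SD, n = 3 each), and its fold changes were -0.31, 0.83 and -4.59 log2, the last of them called (adjusted p = 0.00287). Whether the responses to the single hormones and to the combination differ was not tested here.

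The response of Y541S cells was then compared with that of WT cells, which asks whether the mutant receptor changes what E2+P4 does. The difference between the responses was called for 1599 genes (8.68% of those tested), with 552 more positive in Y541S (3%) and 1047 more negative (5.68%). WT cells themselves had 4309 called genes (23.4%), 2183 higher and 2126 lower. Greb1 had 31.1 ± 4.51 CPM under E2+P4 and 29.1 ± 14.2 CPM under placebo in Y541S cells, against 192 ± 64.5 and 1.39 ± 0.73 CPM in WT cells (mean ± SD, n = 3 each). The treated WT libraries were all above the treated Y541S libraries, and the WT placebo libraries all below the Y541S placebo libraries (difference of responses -7.01 ± 0.77 log2, adjusted p = 6.02e-07). Sftpd, which encodes the lung and mucosal defence lectin surfactant protein D, had 24.1 ± 10.2 and 9.94 ± 3.84 CPM in Y541S cells, against 339 ± 63.7 and 0.145 ± 0.117 CPM in WT cells (-9.90 ± 0.88 log2, adjusted p = 2.59e-08). Tph1, the serotonin-synthesis gene, had 422 ± 78 and 1155 ± 545 CPM in Y541S cells, against 362 ± 118 and 6.14 ± 1.56 CPM in WT cells (-7.33 ± 0.97 log2, adjusted p = 1.06e-05). Slpi, which encodes a protease inhibitor of secretions, had 353 ± 40.5 and 492 ± 259.9 CPM in Y541S cells, against 178 ± 85.8 and 2.14 ± 0.615 CPM in WT cells (-6.85 ± 1.13 log2, adjusted p = 0.000196), and for Penk the difference was -5.38 log2. In each of these 5 genes the mean of the Y541S placebo libraries was above that of the WT placebo libraries. The lactate exporter gene Slc16a3 had a response of -2.65 log2 in Y541S cells and 4.99 log2 in WT cells (-7.64 ± 0.80 log2, adjusted p = 2.64e-07), and Dpep2, a dipeptidase gene, of -2.29 and 6.47 log2 (-8.76 ± 0.73 log2, adjusted p = 1.41e-08).

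In the other direction, Ptn, the gene of the growth factor pleiotrophin, had 810.5 ± 55.9 CPM under E2+P4 and 276 ± 294 CPM under placebo in Y541S cells, against 98.8 ± 16.4 and 5986 ± 1354 CPM in WT cells (7.48 ± 0.85 log2, adjusted p = 1.22e-06). Its own response in Y541S cells was 1.56 log2 and 2.92 log2 without placebo 3. Col8a1, a collagen VIII chain gene, had 102 ± 18 and 109 ± 19.1 CPM in Y541S cells, against 11 ± 4.61 and 999 ± 264 CPM in WT cells (6.41 ± 0.71 log2, adjusted p = 7.76e-07). Upk3a had a smaller fall in Y541S cells (-3.44 log2) than in WT cells (-9.74 log2; difference 6.30 ± 1.52 log2, adjusted p = 0.00811), and Dpysl5 changed by 3.48 and -0.67 log2 (4.15 ± 0.75 log2, adjusted p = 0.000572). The progesterone-induced Tnfsf11 gave no called difference from WT (-0.76 ± 1.73 log2, adjusted p = 0.86), nor did Calca (1.61 ± 1.14 log2, adjusted p = 0.432) or Fkbp5 (-1.95 ± 0.67 log2, adjusted p = 0.0661), and these errors leave room for differences of more than 1 log2.

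By function, called differences from WT were mostly negative, as over all tested genes, where 552 (3%) were positive and 1047 (5.68%) negative. Of 33 interferon response genes 15 had a more negative response in Y541S cells and 0 a more positive one, Ifit3 among them (-3.10 log2 in Y541S cells, 2.89 log2 in WT cells). The counts were 0 positive and 11 negative for 26 chemokines and cytokines, 0 and 9 for 17 antigen presentation genes, 0 and 9 for 27 milk genes, 0 and 11 for 49 translocation and transport genes, 0 and 10 for 32 folding genes, and 0 and 8 for 24 glycolysis genes. Cxcl12 changed by -4.06 log2 in Y541S cells and 0.92 log2 in WT cells (-4.98 ± 0.72 log2, adjusted p = 3.75e-05), and Ccn5 by -2.49 and 4.06 log2 (-6.55 ± 0.81 log2, adjusted p = 4.24e-06). Estrogen receptor targets gave 0 positive and 5 negative differences of 28, and respiratory chain genes 4 and 0 of 39. The immediate early list gave 1 and 5 of 30, and the clock list 1 and 4 of 16.

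**Figure D4:**
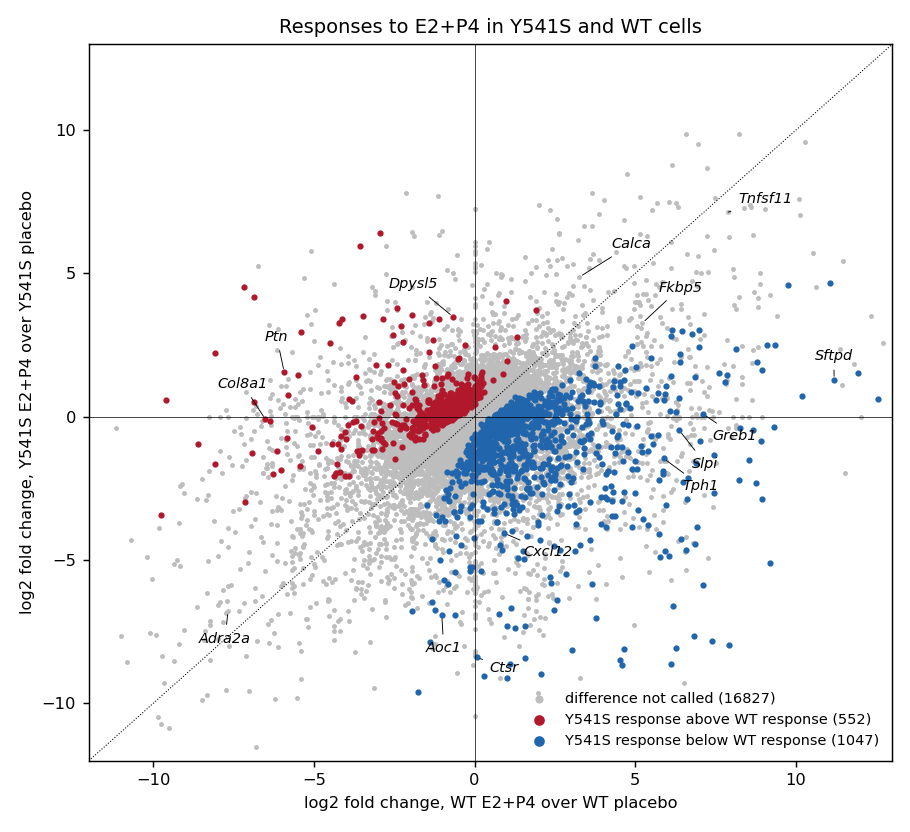
Log2 fold change of E2+P4 over placebo in Y541S cells (vertical) against that in WT cells (horizontal) for the 18426 tested genes, with a dotted line where both are equal. Red points are the 552 genes with a more positive and blue points the 1047 with a more negative response in Y541S cells; Greb1 lies far to the right at a Y541S value of 0.10, Sftpd farther to the right and a little higher, and Tnfsf11 lies close to the dotted line.

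Against D542G cells, which carry another ligand-binding domain substitution, the difference was called for 898 genes (4.87%), 283 more positive in Y541S (1.54%) and 615 more negative (3.34%). D542G cells had 4685 called genes (25.4%). Leaving out D542G E2+P4 2 brought the count of differences to 354, and leaving out placebo 5 to 474. Greb1 had 67.3 ± 15.3 CPM under E2+P4 and 0.858 ± 0.385 CPM under placebo in D542G cells (difference -6.19 ± 0.76 log2, adjusted p = 6.15e-05), Penk 227 ± 184 and 3.19 ± 3.07 CPM (-6.47 ± 1.33 log2, adjusted p = 0.00581), and Slpi 504 ± 213 and 3.47 ± 0.663 CPM (-7.66 ± 1.14 log2, adjusted p = 0.000294). Ptn and Col8a1 were again more positive in Y541S cells (4.53 and 3.06 log2). Of the fibroblast collagens, Col1a1 (-8.26 log2), Col1a2 (-8.25 log2) and Col3a1 (-7.39 log2) were more negative in Y541S cells; fibroblast markers had a median response of -2.36 log2 in Y541S cells and 3.79 log2 in D542G cells, and their part was not tested. The Col1a1 and Col1a2 differences were called neither without placebo 5, at -6.12 and -6.88 log2, nor without Y541S E2+P4 1 or 3 or D542G placebo 2 or 3. The interferon list gave 14 negative and 0 positive differences of 33, and the immediate early list 12 negative and 1 positive of 30.

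**Figure D5:**
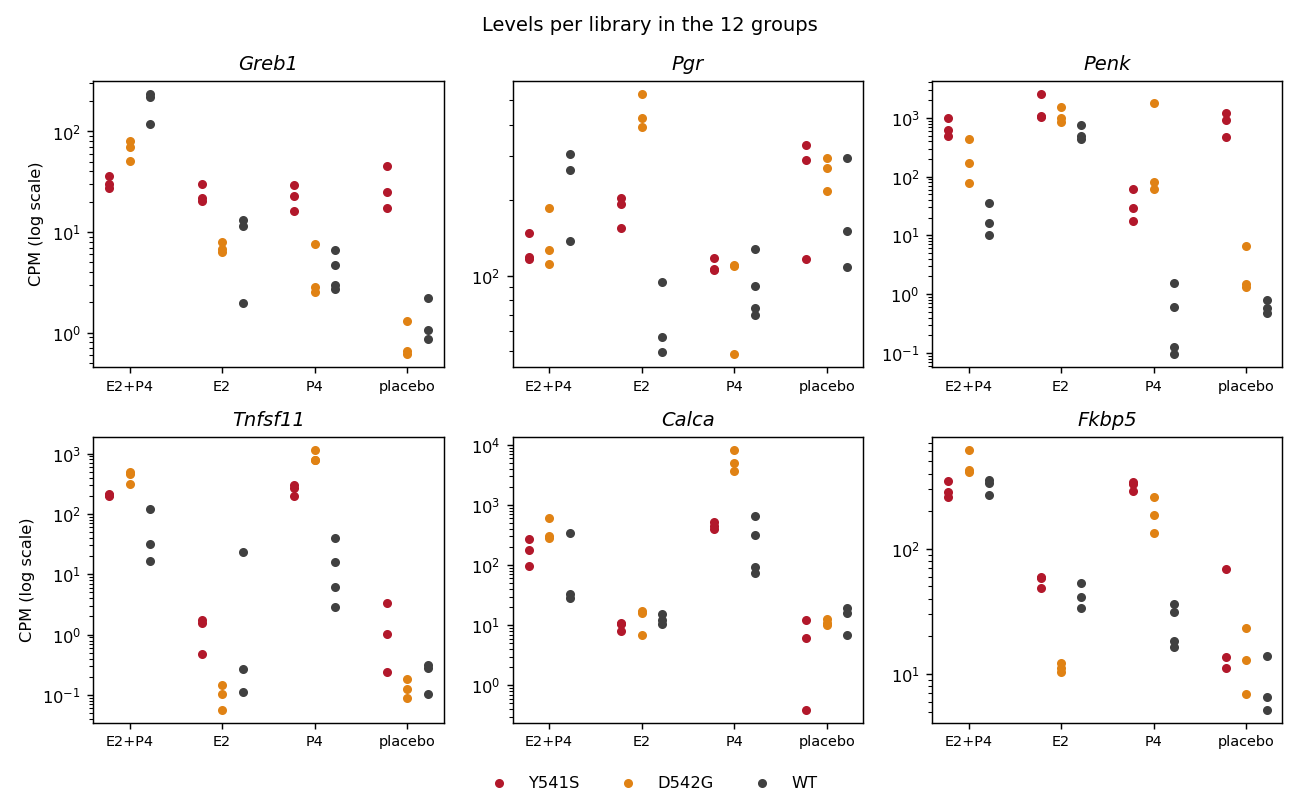
CPM on a log scale of 6 genes in every library, by treatment from left to right (E2+P4, E2, P4, placebo) and by genotype (Y541S red, D542G orange, WT dark grey). Greb1 stays within 16.3 to 44.9 CPM in all 12 Y541S libraries, while Tnfsf11 is at 200.3 to 301.6 CPM in the 6 Y541S libraries given P4 with or without E2 and at 0.245 to 3.34 CPM in the other 6.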

How the data were processed

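Sorted mature luminal mammary cells of mice were profiled by RNA sequencing, with RNA from a column kit and Nextera XT libraries made from cDNA, per the labels' protocols. The authors deposited whole-number read counts per gene for each library, placed on GRCm38 per the submitters' processing notes; the aligner, the counter and the use of strand are not given in the sources used here. Gene symbols came from GENCODE vM21 for 52489 of 52636 identifiers.

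Genes were filtered by group (filterByExpr), scaled by TMM and tested over all 37 libraries with edgeR 4.0.16 (R 4.3.3) by its robust quasi-likelihood test, with 1 coefficient per group and Benjamini-Hochberg adjustment. SEs were obtained by dividing fold changes by the root of F. DESeq2 1.42.0 was an alternative. The scripts were tested on simulated data. Genes are named by rule: the 15 largest rises and falls, up to 4 called members of each of 47 lists, a panel of 22, the 8 furthest each way of each difference between responses, and the top marker of each other cell type; a few genes the rule names are not reported here. Members and lists were chosen with earlier results of these data known. Sequences came from RefSeq (GRCm38.p6).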

Additional observations from a re-analysis of the deposited data

Results flagged for a closer look

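The E2+P4 response of Y541S cells differed from that of WT cells for 1599 genes and from that of D542G cells for 898 genes, each by a test of the difference itself in edgeR. The values below are differences of log2 responses, Y541S minus WT or Y541S minus D542G, for the named genes that passed it.

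Against WT, the more negative responses in Y541S cells were -9.90 for Sftpd, -8.76 for Dpep2, -7.74 for the synapsin gene Syn2, -7.64 for Slc16a3, -7.33 for Tph1, -7.23 for the mucin gene Muc13, -7.01 for Greb1, -6.85 for Slpi and -5.38 for Penk. Tnnc1, a troponin gene that lies wholly within the span of other genes, had -8.52. Elf5 had -2.11 and Krt8 -0.92. More positive responses in Y541S cells were 7.48 for Ptn, 6.41 for Col8a1, 6.30 for Upk3a, 5.65 for Clca1, which belongs to a multigene family, 4.69 for the potassium channel gene Kcnh1, 4.30 for the neurexin gene Nrxn3, 4.16 for Sytl2 and 4.15 for Dpysl5.

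Against D542G, more negative responses in Y541S cells were -8.26 for Col1a1, -8.25 for Col1a2, -7.39 for Col3a1, -7.66 for Slpi, -6.47 for Penk, -6.19 for Greb1, -6.15 for Rspo1, -6.14 for Ccn5 and -2.32 for Kit. More positive responses were 4.53 for Ptn, 3.35 for the transcriptional repressor gene Prdm1, 3.22 for Fgf13, 3.11 for the serine protease gene Prss22, 3.07 for the Wnt5a receptor gene Ror2, 3.06 for Col8a1 and 2.97 for Sytl2. The calls of Col1a1, Col1a2, Fgf13, Prdm1, Ror2, Rspo1 and Sytl2 against D542G were lost in at least 1 fit without a library, and Rspo1 had -3.53 without Y541S placebo 5. The cause of these differences was not tested.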

How the results depend on the processing

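The E2+P4 response of Y541S cells numbered 3417 genes called, and 2202 (without E2+P4 3, 2165 of them shared) to 3657 (without placebo 5, 2667 shared) when a library was left out. It numbered 955 in a test against a change of 1.5-fold and 1922 when only the 6 libraries were fitted. The difference from WT numbered 620 against a 1.5-fold change and 933 with only the groups compared, and 1078 to 1888 without a library. The difference from D542G numbered 288 against a 1.5-fold change, 490 with only the groups compared, 442 with the first identifier series alone, 1535 by DESeq2, and 354 (without D542G E2+P4 2) to 1130 (without Y541S placebo 3) without a library. It was 408 without Y541S E2+P4 3 and 474 without placebo 5. Other scalings and filters gave counts within 1.5 times of these. Sample numbers 2 and 3 occur in both Y541S groups, and the labels do not say whether a shared number means a shared batch. Deviations of same-numbered libraries correlated at -0.0586 and -8.34e-06, but so few pairs cannot decide whether the libraries are paired. With the number as a replicate block the counts were 2957, 1321 against WT and 458 against D542G. For named genes, 3177 alternative values kept direction and call, 27 gained a call and 310 lost it. The sign changed in 0 values called in either fit and in 22 values, of 10 genes, called in neither. Without a library these genes ranged from -0.26 to 0.22 log2 (Cited1), -0.23 to 0.02273 (Col8a1), -0.17 to 0.55 (Greb1), -1.33 to 0.16 (Hbb-bs), -0.80 to 1.39 (Kcnh1), -0.92 to 0.88 (Kit), -1.24 to 0.05233 (Krt17), -0.11 to 1.68 (Lyz2), -0.64 to 0.01973 (Penk) and -0.69 to 0.04597 (Slpi). With the first identifier series alone Kit was 0.88, Krt17 0.05092, Penk 0.01893 and Slpi 0.04375 log2, and with the replicate block Kit was 0.48 log2. The cause of these changes was not tested.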

Other observations

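Markers of other cell types had mostly negative fold changes with few calls. Of 13 endothelial markers 1 rose (7.692%) and 3 fell (23.08%), against 8.43% and 10.1% of all tested genes. They had 1 positive fold change and a median of -1.72 log2, and 1 rose and 1 fell without placebo 5. Eng, which encodes the receptor endoglin, had 2.1, 6.88 and 4.6 CPM under E2+P4, against 38.9, 43.4 and 22.3 CPM under placebo (-2.94 ± 0.48 log2, adjusted p = 0.000104). Cdh5, the endothelial cadherin gene, was called at -3.68 ± 0.99 log2 and was at -2.01 log2 (adjusted p = 0.134) without placebo 5. Pecam1, a junction receptor gene, was called at -2.49 ± 0.75 log2 and was at -1.61 log2 (adjusted p = 0.143) without placebo 5. Vwf, the von Willebrand factor gene, had 50, 59.4 and 49.9 CPM under E2+P4, against 11.3, 27.3 and 31.1 CPM under placebo and was the member that rose (1.19 ± 0.42 log2, adjusted p = 0.0483). Its call was kept without placebo 5 and lost in each of the other 5 fits without a library. Of 14 fibroblast markers 0 rose and 2 fell, and of 15 basal and myoepithelial markers 0 rose and 1 fell, Myh11, which encodes smooth muscle myosin, at -3.21 ± 0.69 log2, adjusted p = 0.00144. DESeq2 called 6 fibroblast and 4 basal markers lower. Of 7 adipocyte markers edgeR called 0, with 1 lower at an unadjusted p under 0.05 and 1 lower by DESeq2. Of 4 erythroid markers 0 were called by either tool, and 0 had an unadjusted p under 0.05. Of 18 leukocyte markers 2 had a positive fold change, and the median was -1.67 log2. Lyz2, the lysozyme gene, was the highest of them in all but placebo 2 and 3 and had 10.8, 20.7 and 9.6 CPM under E2+P4, against 4.58, 3.99 and 24.6 CPM under placebo (0.31 ± 1.07 log2, adjusted p = 0.882). Cd68, a macrophage marker named after its values were seen, was higher than Lyz2 in those libraries and had 2.54, 3.95 and 3.45 CPM under E2+P4, against 13.7, 7.49 and 7.41 CPM under placebo (-1.52 ± 0.60 log2, adjusted p = 0.0763). Of 12 luminal epithelial markers 3 rose (25%) and 2 fell (16.67%).

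Hormone and cyclic AMP response elements were also searched in the promoter windows. The estrogen response element is GGTCA and TGACC with 3 bases of any kind between them. It was in 0.07% of windows, in 0.0316% of tested genes with a window and in 0 of 20 estrogen receptor targets. The progesterone response element was searched as GNACA and TGTNC around 3 bases of any kind. It was in 0.475% of windows, in 0.45% of tested genes with a window and in 1 of 24 steroid receptor targets, Sgk1. The cyclic AMP response element TGACGTCA was in 1.79% of windows and in 3.18% of tested genes with a window. Among immediate early genes with a window, called or not, it was in 3 of 25. Of the 15 called lower it was in 2, Btg2 and Dusp1. Dusp1, a phosphatase gene, had 296, 315 and 368 CPM under E2+P4, against 867, 705 and 1216 CPM under placebo (-1.51 ± 0.36 log2, adjusted p = 0.00357).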
